A study of Rattus norvegicus with 9 samples.

Results

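The small leucine-rich proteoglycans are secreted matrix proteins built of tandem leucine-rich repeats, and most carry glycosaminoglycan chains. They were described here as a family of 10 genes chosen by name: decorin (Dcn), biglycan (Bgn) and asporin (Aspn) of class I, lumican (Lum), fibromodulin (Fmod), keratocan (Kera), Prelp and osteomodulin (Omd) of class II, osteoglycin (Ogn) of class III, and podocan (Podn). Of these 10 genes, 9 were found by symbol among the 19085 genes of the count table, and 8 of the 13256 genes with enough counts for a test. Podn was not analysed here, and Kera was present but nearly without reads.

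These proteins bind collagen fibrils through their repeats, and so set how thick the fibrils grow and how they are spaced. Class I members typically carry chondroitin or dermatan sulfate chains, class II members keratan sulfate, and several members also bind growth factors of the TGF-β family. In bone, biglycan and decorin are abundant in the osteoid that osteoblasts lay down, and osteomodulin (also called osteoadherin) was named for its place in mineralised matrix.

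The cells were primary osteoblasts of the calvaria, taken from male Sprague-Dawley rats at an age of 24 hours. All groups were kept for 7 days in osteogenic induction medium, and their polyadenylated RNA was sequenced. The control group had this medium alone, the thrombin group had 20 U/mL thrombin, and the PD03 group had 20 U/mL thrombin with 0.1 μM PD0325901 (PD03), which blocks the kinase MEK. Each group held 3 libraries from samples that the study calls independent. Nothing says whether these were separate animals or cultures, so p-values measure only the spread between them. The concentration is that of the series' design text, since a protocol in the sample labels writes 0.1 mM, and the labels name the knee as tissue although the growth protocol names the calvaria. The extraction protocol in the labels also speaks of hydrogel groups, which the growth protocol does not mention. The treatment label of the PD03 libraries names only PD0325901, and the design text adds thrombin.

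Total counts lay between 15447832 and 19841468 per library. Col1a1, the type I collagen chain that osteoblasts make in bulk, had a share of counts of 6.78% to 6.96% with PD03 and of 4.18% to 5.05% elsewhere. Among osteoblast markers, Sparc was abundant and Runx2 averaged 42.8 CPM (the count scaled to library size by the TMM method, written CPM below) in the control group, whereas the late markers Bglap and Ibsp were near 0, at 0.142 and 0.0211 CPM, and Alpl stood at 1.67 CPM. The 11 markers, with Col1a1, summed to 49600 to 55000 CPM in control, 46400 to 49900 with thrombin and 79300 to 81500 with PD03. Of 8 tested, 1 was called (defined below) higher and 1 lower with thrombin, and 4 higher and 2 lower with PD03 over thrombin. Of all tested genes, 2.62% were called higher and 5.44% lower with thrombin, and 9.61% higher and 6.31% lower with PD03 over thrombin. As a check of the treatment, 10 of 12 genes known to respond to MEK and ERK were called lower with PD03 than with thrombin alone. Among them, Egr1 fell by 3.70 on the log2 scale (SE 0.12, edgeR adjusted p = 1.7e-27). With thrombin against control, 2 of the 12 were called higher and none lower (list median 0.031). The larger of these rises was that of Phlda1, at 0.98 on the log2 scale (SE 0.067, edgeR adjusted p = 9.5e-16). The summed levels of the 12 genes overlapped, at 722 to 831 CPM in control and 648 to 796 with thrombin. With PD03 against control, 10 of the 12 were called lower, as were 4.07% of all tested genes. In bulk RNA, fewer cells of a type and less RNA per cell cannot be told apart.

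In the RefSeq annotation of the rat assembly GRCr8, several members lie side by side. On chromosome 17, Ogn, Omd and Aspn are consecutive protein-coding genes, and all 3 lie inside the span of Cenpp, a centromere protein gene. On chromosome 7, Dcn, Lum and Kera follow each other, and on chromosome 13 Prelp is next to Fmod. Bgn is on chromosome X. This annotation is newer than the one behind the counts and served only for names, order and sequence.

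Promoter entries were found for 7 of the 10 members (Aspn, Lum, Fmod, Kera, Omd, Ogn and Podn). The upstream sequences of Ogn, Omd, Aspn and Fmod are shown because these 4 genes were called higher with PD03 and have an entry. All are from RefSeq (GRCr8), written 5′ to 3′ on the gene's strand, and only bases outside every listed transcript of the gene are printed. Ogn is chr17:15259168-15259245, Omd is chr17:15274871-15275120 and Aspn is chr17:15310568-15310719, all on the minus strand, and Fmod is chr13:48045317-48045566 on the plus strand. Capitals mark a match to GGAAGT, a core of sites for ETS factors that ERK can phosphorylate, or to TATAAA, on either strand.
Ogn: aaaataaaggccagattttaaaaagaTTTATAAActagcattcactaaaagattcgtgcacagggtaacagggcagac
Omd: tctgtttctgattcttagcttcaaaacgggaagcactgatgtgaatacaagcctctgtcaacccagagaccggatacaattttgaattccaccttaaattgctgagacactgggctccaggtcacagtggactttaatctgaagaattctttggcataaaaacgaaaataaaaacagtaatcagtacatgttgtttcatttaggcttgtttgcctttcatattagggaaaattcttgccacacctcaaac
Aspn: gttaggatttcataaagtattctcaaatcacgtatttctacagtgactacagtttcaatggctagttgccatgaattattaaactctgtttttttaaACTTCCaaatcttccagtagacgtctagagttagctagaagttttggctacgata
Fmod: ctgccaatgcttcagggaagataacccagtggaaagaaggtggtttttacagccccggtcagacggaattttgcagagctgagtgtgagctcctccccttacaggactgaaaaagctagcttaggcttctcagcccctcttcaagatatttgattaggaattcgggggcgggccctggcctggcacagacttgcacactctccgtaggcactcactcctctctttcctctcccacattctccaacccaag

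Over the 250 bases before the start site, GGAAGT was found in Ogn and Aspn and not in Omd or Fmod, and 19.2% of all 33469 promoters hold it. The Aspn match is the run in capitals above, and the Ogn match, starting 69 bases before the start site, lay within the span of a longer transcript and is not printed. TATAAA was found in Ogn alone of these 4, as overlapping matches on both strands, against 12.9% of all promoters. Neither TGANTCA, a site for AP-1 factors (6.34% of all promoters), nor CACGTG, an E-box (5.59%), was present in any of the 4. A match of this kind is a description of letters and not a binding site.

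Compared per transcript length, on the deposited FPKM scale, biglycan was the leading member in every group. In the control group Bgn averaged 926 ± 8.91 FPKM (SD, n = 3), followed by Dcn at 352 ± 11.7, Lum at 144 ± 4.70 and Prelp at 106 ± 4.20. Below these came Aspn at 61.2 ± 4.44, Ogn at 54.2 ± 4.27, Fmod at 24.1 ± 0.405 and Omd at 4.31 ± 1.08 FPKM. Aspn and Ogn were the only neighbours in this order whose control libraries overlapped. With PD03 the order of these 8 genes was the same, and with thrombin alone it changed at a single place, where Fmod (24.0 ± 1.45 FPKM) stood above Ogn (21.1 ± 0.924 FPKM).

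**Figure D1:**
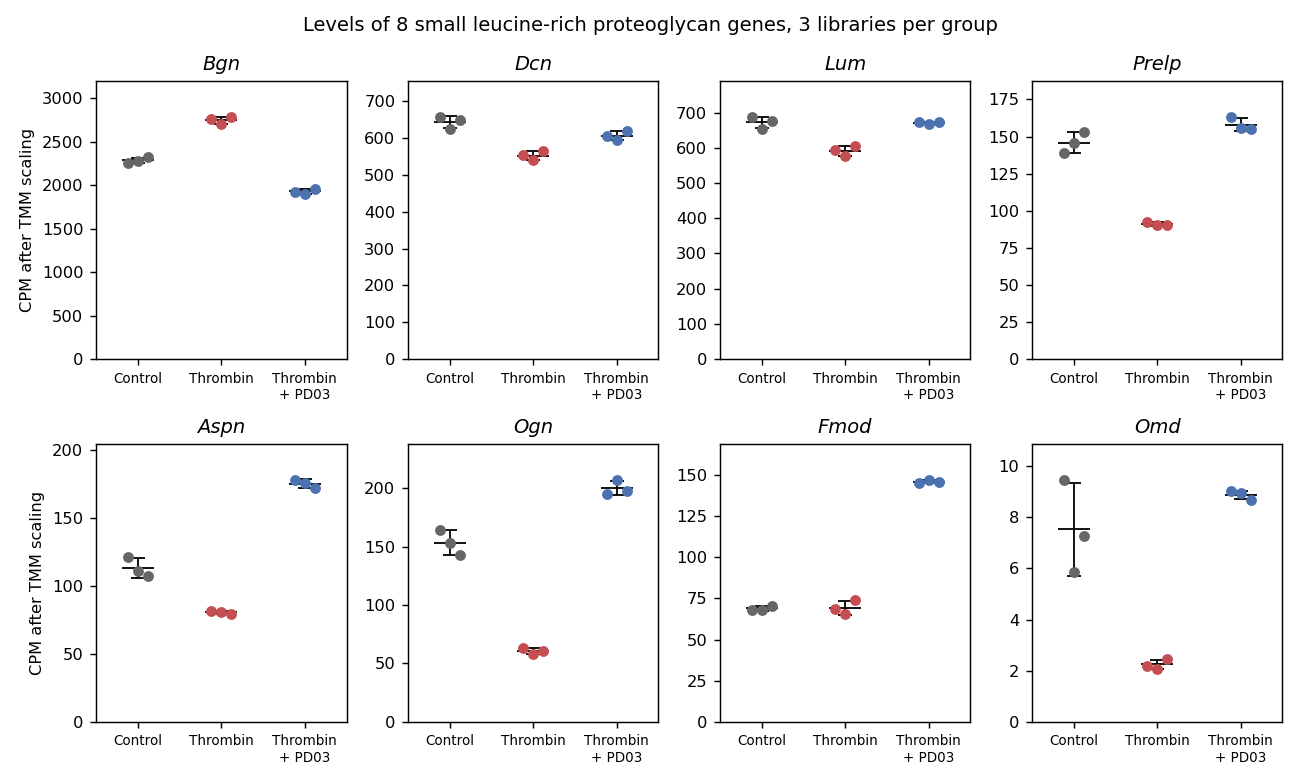
Levels of the 8 tested members in CPM after TMM scaling (vertical axes, each from 0), with 1 point per library and the mean ± SD of 3 libraries in black. Thrombin libraries lie lowest for Dcn, Lum, Prelp, Aspn, Ogn and Omd and highest for Bgn, and Fmod is raised only in the libraries with PD03.

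The first comparison asked what thrombin did to the family. A gene was called when its adjusted p from edgeR's quasi-likelihood test was under 0.05 and its log2 fold change exceeded 0.58 in size. Thrombin lowered 3 of the 8 tested members (Ogn, Omd and Prelp), while 5.44% of all tested genes were called lower, and none was called higher by edgeR, DESeq2 or limma voom, against 2.62% of all genes called higher. At an unadjusted p under 0.05, 1 member was higher (Bgn). At any fold, 7 of the 8 members had an adjusted p under 0.05, as did 28.7% of all genes, and of these 7 only Bgn was higher. The median log2 fold change of the 8 members was -0.36, beside -0.0060 over all tested genes.

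The second comparison asked what MEK inhibition changed while thrombin was present. PD03 raised 5 of the 8 members (Aspn, Fmod, Prelp, Omd and Ogn) relative to thrombin alone, where 9.61% of all genes were called higher, and none was called lower by the same 3 tools, where 6.31% of all genes were. At an unadjusted p under 0.05, 1 member was lower (Bgn). All 8 members had an adjusted p under 0.05 at any fold, as did 49.8% of all genes, with Bgn again the one that went against the rest. The members' median was 0.94 against 0.011 over all genes. Both comparisons use the same thrombin libraries and are therefore not independent of each other.

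The third comparison set the PD03 group against the untreated control. Here 2 of the 8 members were called higher, Aspn and Fmod, with 4.90% of all genes called higher, and none was called lower by the same 3 tools, with 4.07% of all genes called lower. At an unadjusted p under 0.05, 2 members were lower (Dcn and Bgn). At any fold, 6 of the 8 had an adjusted p under 0.05, as did 39.9% of all genes. The members' median log2 fold change was 0.17 against -0.0040 over all genes.

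**Figure D2:**
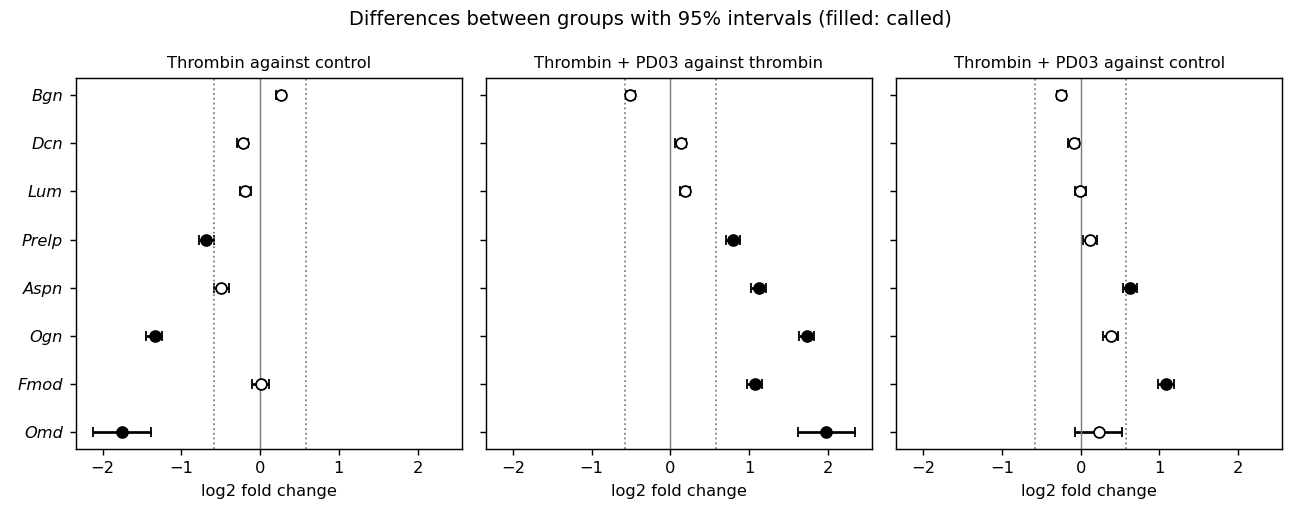
Log2 fold changes of the 8 tested members (horizontal axis) in the 3 comparisons, with 95% intervals from edgeR, filled symbols for called genes and dotted lines at the fold threshold of 0.58 in either direction. Ogn and Omd lie furthest down for thrombin against control and furthest up for PD03 against thrombin, Fmod and Aspn lie furthest up for PD03 against control, and Bgn points the opposite way to Dcn in the first and second panels.

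Osteoglycin, a class III member with keratan sulfate forms that is also called mimecan, showed the widest range of the members at 10 CPM or more. Its levels were 164, 153 and 143 CPM in the control libraries, 63.0, 57.9 and 60.4 with thrombin, and 195, 207 and 198 with thrombin and PD03. The 3 groups did not overlap, and every PD03 library lay above every control library. With thrombin Ogn fell 2.54-fold (log2 fold change -1.34, SE 0.050, edgeR adjusted p = 1.1e-24), and PD03 raised it 3.31-fold over thrombin alone (1.73, SE 0.050, adjusted p = 3.1e-29). Against control the PD03 level was higher by 0.38 on the log2 scale (95% interval 0.29 to 0.48, adjusted p = 3.9e-09), under the fold threshold.

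Osteomodulin, a keratan sulfate member found in bone matrix, was the least abundant of the tested members. It was measured at 9.46, 5.87 and 7.26 CPM in control libraries, at 2.20, 2.08 and 2.45 CPM with thrombin and at 9.01, 8.94 and 8.69 CPM with PD03. The thrombin libraries were all below the others, while the control libraries spread widely and overlapped those with PD03. Thrombin lowered Omd 3.37-fold (log2 fold change -1.75, SE 0.18, adjusted p = 1.6e-10, edgeR) and PD03 raised it 3.95-fold over thrombin (1.98, SE 0.18, adjusted p = 1.3e-12). No difference was shown between PD03 and control (0.23, 95% interval -0.072 to 0.53, adjusted p = 0.23). This value depended on single control libraries, at 0.44 without Control 1 (adjusted p = 0.031) and 0.073 without Control 2.

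Asporin, a class I protein without the usual glycosaminoglycan attachment, known to bind TGF-β and collagen, is the neighbour of Omd. Its levels were 121, 111 and 107 CPM in control, 81.7, 80.6 and 79.3 CPM with thrombin, and 178, 176 and 172 CPM with PD03. No libraries of different groups overlapped. The decrease with thrombin stayed under the fold threshold (log2 fold change -0.49, SE 0.048, adjusted p = 2.9e-11 by edgeR), whereas PD03 raised Aspn 2.17-fold over thrombin (1.12, SE 0.047, adjusted p = 1.9e-23). It was also called higher than in control, at 1.55-fold (0.63, 95% interval 0.54 to 0.72), but that call was lost with library totals as the scaling (0.51).

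The genes around this cluster were read beside it. Ecm2, another leucine-rich repeat gene of the same locus, fell from 4.07 ± 1.41 to 1.90 ± 0.126 CPM with thrombin and rose to 4.22 ± 0.597 CPM with PD03 (SD, n = 3 each). Both changes were called (log2 fold changes -1.11 and 1.16, edgeR adjusted p = 0.00026 and 5.9e-05). Cenpp, whose span covers all 4 genes, ran at 4.13 ± 0.465, 4.71 ± 0.867 and 3.29 ± 0.424 CPM in control, thrombin and PD03, and was called in none of the 3 comparisons. With PD03 it was lower than with thrombin by 0.51 on the log2 scale (edgeR adjusted p = 0.026), without overlap but under the fold threshold. The sources used here do not give a strand setting for the counting, so reads of Cenpp and of the genes within it cannot be told apart with certainty. Ogn and Aspn stood far above Cenpp, whereas Omd and Ecm2 were near its level.

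Prelp, a class II protein whose basic end binds heparan sulfate, followed the same course at a smaller size. It was at 139, 146 and 153 CPM in control, 92.3, 90.2 and 90.5 CPM with thrombin, and 163, 156 and 155 CPM with PD03. Thrombin libraries were lowest and the groups did not overlap. The decrease was 1.60-fold (log2 fold change -0.68, SE 0.045, edgeR adjusted p = 2.9e-16) and the rise with PD03 1.74-fold (0.80, SE 0.045, adjusted p = 6.2e-19). Against control the PD03 libraries were higher by 0.12 on the log2 scale (adjusted p = 0.028), which came to 0.0019 with library totals.

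Its neighbour fibromodulin, a keratan sulfate proteoglycan that guides collagen cross-linking, did not share the thrombin response. Fmod was at 68.2, 68.1 and 70.5 CPM in control and at 68.3, 65.5 and 74.0 CPM with thrombin, and these libraries overlapped. The log2 difference was 0.0060, with a 95% interval from -0.098 to 0.11 and an edgeR adjusted p of 0.95, and its sign turned with library totals. With PD03 the levels were 145, 147 and 146 CPM, above all other libraries. This was 2.11-fold over thrombin (log2 fold change 1.08, SE 0.049, adjusted p = 3.8e-22) and 2.12-fold over control (1.08, SE 0.049, adjusted p = 8e-22).

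Biglycan, which carries chondroitin or dermatan sulfate chains and is the most abundant member in these cells, had differences of the opposite sign. It was at 2260, 2280 and 2320 CPM in control, 2760, 2700 and 2780 CPM with thrombin and 1920, 1900 and 1960 CPM with PD03. No groups overlapped, and the thrombin libraries were the highest. Thrombin was associated with a 1.20-fold higher level (log2 fold change 0.27, SE 0.029, edgeR adjusted p = 6.4e-10) and PD03 with a 1.42-fold lower level than thrombin (-0.51, SE 0.029, adjusted p = 9.1e-19). Neither passed the fold threshold, although the second did with library totals as the scaling (-0.61). Against control, Bgn with PD03 was lower by 0.25 (adjusted p = 2.9e-09), also under the threshold.

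Decorin, the closest relative of biglycan and a well known binder of TGF-β, stayed under the fold threshold in all 3 comparisons. Its levels were 657, 625 and 651 CPM in control, 554, 540 and 565 CPM with thrombin and 606, 595 and 619 CPM with PD03. The thrombin libraries were the lowest and the groups did not overlap on this scale. The difference was -0.22 on the log2 scale with thrombin against control (SE 0.034, edgeR adjusted p = 1.2e-06) and 0.13 with PD03 against thrombin (SE 0.034, adjusted p = 0.00096). The latter came to 0.035 with library totals (adjusted p = 0.40). For PD03 against control the difference was -0.088 (95% interval -0.156 to -0.020, adjusted p = 0.034), and -0.204 with library totals. Its adjusted p was 0.11 without Control 1, 0.082 without Control 3 and 0.1 without replicate 2 of PD03.

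Lumican, the keratan sulfate member next to Dcn, gave similar log2 differences in the first and second comparisons. It was at 687, 654 and 676 CPM in control, 593, 576 and 604 CPM with thrombin and 673, 667 and 673 CPM with PD03. Thrombin libraries were below all others, and control and PD03 libraries overlapped. The log2 differences were -0.19 with thrombin (SE 0.033, edgeR adjusted p = 1.7e-05) and 0.18 with PD03 over thrombin (SE 0.033, adjusted p = 9.9e-06), and -0.0039 for PD03 against control (95% interval -0.071 to 0.063, adjusted p = 0.94). With library totals the last 2 values came to 0.085 (adjusted p = 0.028) and -0.12 (adjusted p = 0.0024).

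Keratocan, the corneal member of class II and the next gene after Lum, had 0, 1 and 2 counts in the control libraries, 0 in each thrombin library and 0, 1 and 0 counts with PD03. A floor of 3 counts over a group corresponds to 0.0599, 0.0575 and 0.0592 CPM, so no difference was detectable at this depth. Epiphycan (Epyc), the family gene on its other side, was low but measured, at 6.90 ± 1.25 CPM in control, 4.44 ± 0.758 with thrombin and 9.58 ± 0.238 with PD03 (SD, n = 3 each). It was called lower with thrombin (log2 fold change -0.63, edgeR adjusted p = 0.0021) and higher with PD03 over thrombin (1.11, adjusted p = 5.7e-08).

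The make-up of the family differed between the groups. The summed FPKM of the 9 genes was 1672 ± 26.9 in control, 1677 ± 25.9 with thrombin and 1469 ± 12.3 with PD03 (SD, n = 3), on a scale set by library totals. Bgn supplied 55.4% of this sum in control, 65.5% with thrombin and 49.0% with PD03. Ogn supplied 3.24%, 1.26% and 4.44%, and Fmod 1.44%, 1.43% and 3.21%. The shares of Dcn were 21.1%, 17.8% and 20.8%, and those of Lum 8.59%, 7.43% and 8.99%.

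**Figure D3:**
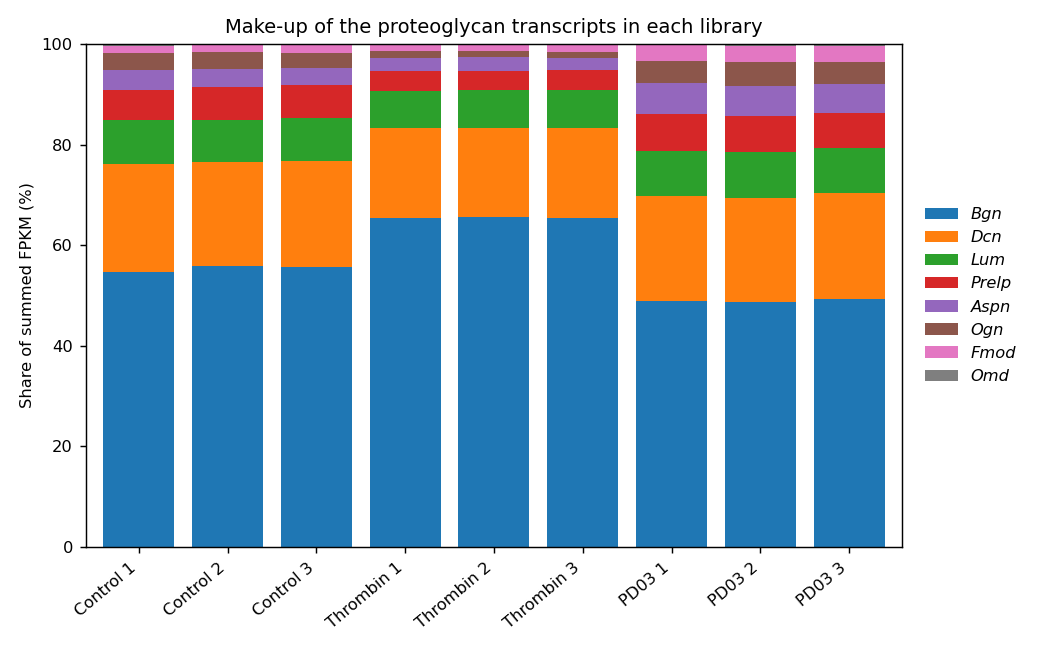
Share of each member in the summed FPKM of the family (vertical axis, percent) in each of the 9 libraries. The Bgn segment is widest with thrombin (mean 65.5%) and narrowest with PD03 (mean 49.0%), where the segments of Aspn, Ogn and Fmod widen, and Omd is too small to see.

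Ratios of 2 members within a library do not depend on how libraries are scaled. The ratio of Bgn to Dcn was 2.55, 2.70 and 2.64 in control, 3.69, 3.71 and 3.64 with thrombin, and 2.35, 2.36 and 2.35 with PD03. The thrombin libraries were highest, the PD03 libraries lowest, and none overlapped. The ratio of Lum to Dcn changed little, with means of 0.408, 0.417 and 0.432, although its groups did not overlap either. Ogn to Dcn went from 0.154 ± 0.0105 to 0.0707 ± 0.00251 with thrombin and 0.213 ± 0.0101 with PD03 (SD, n = 3).

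Within the chromosome 17 cluster, the ratio of Ogn to Omd was 13.0 ± 2.77 in control, 16.7 ± 1.29 with thrombin and 13.9 ± 0.503 with PD03. Control libraries overlapped both others, and every thrombin library lay above every PD03 library. Aspn to Ogn was 1.13 ± 0.0158 in control, 2.04 ± 0.0793 with thrombin and 1.34 ± 0.0524 with PD03, with no overlap between groups. On chromosome 13, Fmod to Prelp was 0.227 ± 0.00781, 0.366 ± 0.0236 and 0.444 ± 0.0156. A two-sided exact permutation test of 3 libraries against 3 cannot give a p under 0.1, so these ratios are given as values.

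**Figure D4:**
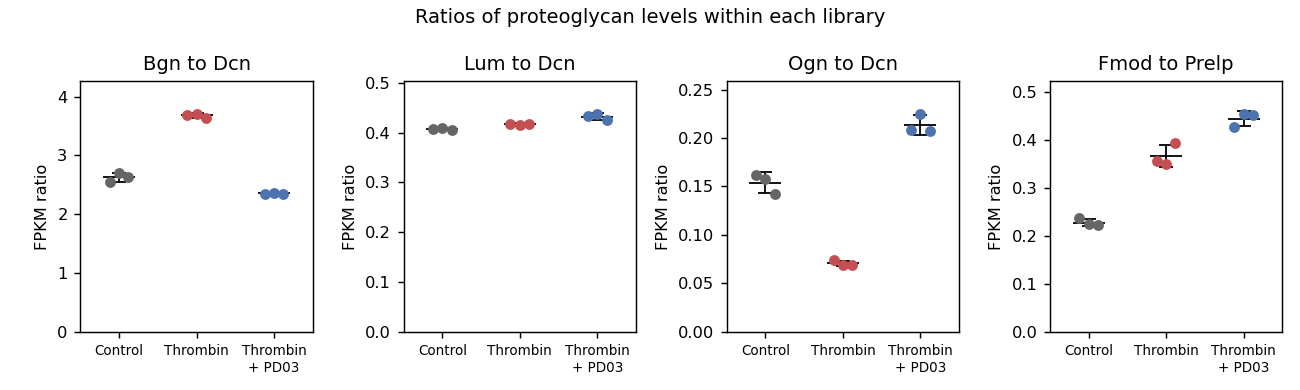
Ratios of FPKM values within each library (vertical axes from 0), with 1 point per library and the mean ± SD of 3 libraries in black. Bgn to Dcn peaks with thrombin (mean 3.68), Ogn to Dcn is lowest there (mean 0.0707), Lum to Dcn stays between 0.406 and 0.438, and Fmod to Prelp is higher in both treated groups.

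The genes nearest to Ogn in profile were sought among all tested genes, by Euclidean distance of centred log2 CPM over the 9 libraries. The nearest was Col14a1, a collagen that sits on the surface of fibrils, at a distance of 0.241. It averaged 536 ± 11.6 CPM in control, 224 ± 8.61 with thrombin and 674 ± 14.4 with PD03. Selenop, a secreted selenium carrier, followed at 0.31, then Duox1, a peroxide-producing oxidase, at 0.325, Gucy1b1, a subunit of soluble guanylate cyclase, at 0.335, and Fmo1, a flavin monooxygenase, at 0.338. On average all 5 were lowest with thrombin and highest with PD03, like Ogn, which follows from how they were picked.

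The collagens that these proteoglycans coat were measured as a list of 13 genes, all tested. With thrombin 3 were called lower (Col11a2, Col6a1 and Col14a1) and none higher, and with PD03 over thrombin 9 were called higher and none lower. The list medians were -0.30 and 0.83 on the log2 scale, beside -0.0060 and 0.011 over all genes. Col11a2, a chain of the collagen that nucleates fibrils in cartilage, changed most but was scarce, at 3.31 ± 0.633, 1.08 ± 0.458 and 3.74 ± 0.818 CPM in control, thrombin and PD03 (SD, n = 3). The edgeR log2 fold changes were -1.60 (adjusted p = 1.4e-05) and 1.77 (adjusted p = 6.7e-07).

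Family genes outside the 10 numbered 8, of which 5 were tested. With thrombin 2 were called lower (Epyc and Ecm2), and with PD03 over thrombin 3 were called higher, the third being Nyx, a gene best known from the retina. Nyx rose from 0.651 ± 0.163 to 1.73 ± 0.267 CPM (log2 fold change 1.40, edgeR adjusted p = 0.00093). Tsku, a secreted signalling protein, and Podnl1 were the other tested genes, and neither was called in any of the 3 comparisons. With thrombin both lay above 0, at 0.194 (edgeR adjusted p = 0.0056) and 0.108 (adjusted p = 0.41) on the log2 scale. The list median with thrombin was the value of Nyx (-0.396, adjusted p = 0.52), whose libraries overlapped. The 8 genes summed to 82.7 to 93.3 CPM in control, 90.2 to 91.3 with thrombin and 103 to 109 with PD03.

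The enzymes that build chondroitin and dermatan sulfate chains did not move as a block. Of 21 tested, 4 were called higher with thrombin (Chsy1, Chsy3, Chst11 and Chst12) and 2 lower (Chst3 and Chst13). With PD03 over thrombin 3 were called higher (Chpf2, Chst3 and Chst13) and 3 lower (Xylt1, Chsy3 and Chst11), and the list medians were 0.0017 and 0.16. Chsy3, a chain polymerase, stood at 10.5, 13.2 and 9.60 CPM in control, 33.8, 41.5 and 38.2 CPM with thrombin and 14.9, 17.4 and 15.2 CPM with PD03. It was highest with thrombin, and its log2 fold changes were 1.77 (SE 0.098, edgeR adjusted p = 7.4e-19) and -1.26 (SE 0.093, adjusted p = 3.6e-15). Chst3, a chondroitin sulfotransferase, ran the other way, at 2.75 ± 0.293, 1.51 ± 0.052 and 5.60 ± 0.492 CPM.

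For keratan sulfate, whose chains Fmod, Lum and Omd carry, 9 enzymes were tested. With thrombin 1 was called higher, the sulfotransferase Chst1, and with PD03 over thrombin 2 were called lower, Chst1 and Chst2. The list medians were -0.0105 and 0.30, so with PD03 over thrombin the 2 called genes went against the median. Chst1 went from 3.00 ± 0.434 to 6.13 ± 0.159 and 1.54 ± 0.604 CPM (log2 fold changes 1.03 and -2.02, edgeR adjusted p = 8.5e-05 and 5.4e-10). Chst2 averaged 312 ± 11.4, 269 ± 14.9 and 141 ± 1.06 CPM in control, thrombin and PD03.

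Of 9 tested proteases and helpers that process or cleave these proteins, 2 were called lower with thrombin, the collagenase Mmp13 and the aggrecanase Adamts5. With PD03 over thrombin 2 were called higher, Bmp1, which trims the biglycan propeptide, and Adamts4, and Mmp13 was called lower again. Mmp13 averaged 12.3 ± 3.19, 6.62 ± 0.421 and 3.72 ± 0.148 CPM in the 3 groups, with log2 fold changes of -0.90 and -0.83 (edgeR adjusted p = 4.2e-06 and 9.8e-05).

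**Figure D5:**
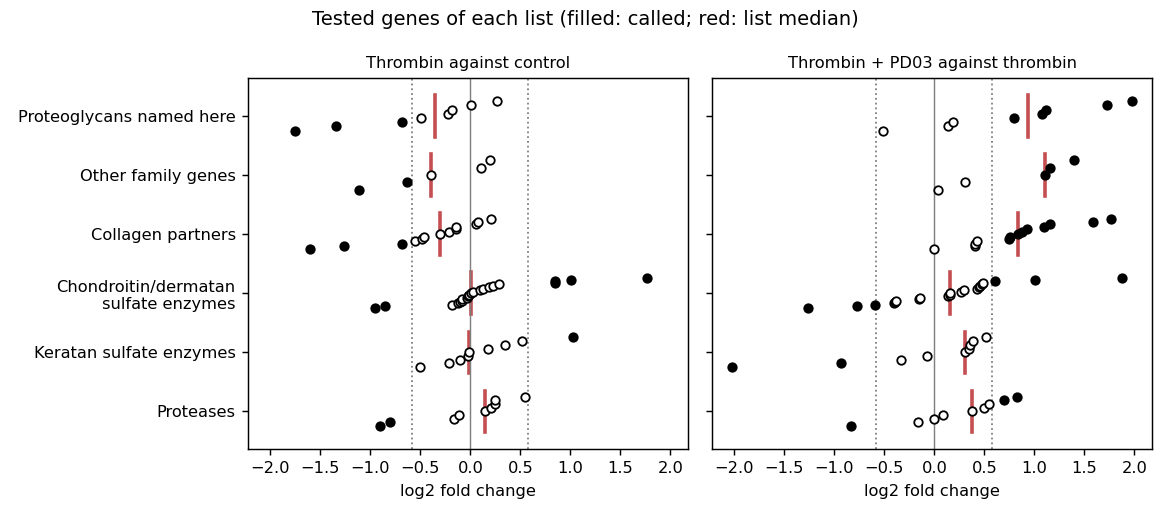
Log2 fold changes (horizontal axis) of every tested gene in 6 lists, with filled symbols for called genes, red bars for list medians and dotted lines at the fold threshold of 0.58 in either direction. Medians of the proteoglycans, other family genes and collagens lie at -0.36, -0.40 and -0.30 with thrombin. The -0.40 is the value of Nyx, which was not called there, and other family genes lie on both sides of 0. With PD03 over thrombin these medians are 0.94, 1.11 and 0.83, while the synthesis enzymes scatter to both sides.

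Among 19 tested proteoglycans of other families, 3 were called higher and 2 lower with thrombin, and 4 higher and 2 lower with PD03 over thrombin. Esm1, a dermatan sulfate proteoglycan of vessel lining, moved furthest, from 148 ± 3.42 to 266 ± 12.4 and 39.2 ± 3.69 CPM (second log2 fold change -2.77, edgeR adjusted p = 2.1e-35). Prg4, the joint lubricant lubricin, went from 3.53 ± 0.184 to 1.54 ± 0.263 and 6.16 ± 0.536 CPM. Acan, the large proteoglycan of cartilage, was called higher with thrombin (1.29, adjusted p = 0.0089) at about 1 CPM.

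Of 13 tested growth factors and receptors that the family is known to bind, 1 was called higher with thrombin (Tgfb1) and 2 lower (Tgfb3 and Met), and 4 were called higher with PD03 over thrombin. Tgfb3 was at 33.9, 41.6 and 37.1 CPM in control, 22.1, 18.6 and 21.2 CPM with thrombin and 98.3, 100 and 101 CPM with PD03. The groups did not overlap, and the log2 fold changes were -0.86 and 2.28 (edgeR adjusted p = 9.8e-13 and 1.4e-28). Tgfb1 averaged 68.4 ± 0.395, 106 ± 3.78 and 75.4 ± 2.68 CPM and was called with thrombin (0.63, adjusted p = 7.9e-14).

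Markers of other cells and states moved with the groups, and their part in the results was not tested. The summed level of 6 smooth muscle and pericyte markers was 672 to 772 CPM in control, 658 to 697 with thrombin and 1660 to 1700 with PD03, mostly from Acta2, while Rgs5 was near 0. Of 5 tested, 1 was called higher with thrombin, 3 with PD03 over thrombin and 4 with PD03 against control, and none was called lower. The 5 tendon markers, among them Egr1, summed to 371 to 453, 240 to 369 and 219 to 228 CPM, and Tnmd alone averaged 46.2, 24.8 and 176 CPM. Of these 5, 1 was called higher and 1 lower with thrombin. With PD03, 3 were called higher and 2 lower over thrombin (list median 0.70, log2), and 4 higher and 1 lower against control (0.69). Proliferation genes summed to 966 to 975, 1120 to 1140 and 713 to 733 CPM, and 6 of 8 were called lower with PD03 over thrombin.

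Of 6 chondrocyte markers in the table, which summed to 90.7 to 101 CPM in control, 66.9 to 72.3 with thrombin and 77.9 to 85.5 with PD03, 4 were tested, and Cnmd and Col10a1 were near 0. Unlike the sum, most of these 4 rose: 2 were called higher and 1 lower with thrombin (list median 0.39, log2). With PD03, 1 was called higher over thrombin (0.19), and 3 were called higher and 1 lower against control (0.95). Adipocyte markers summed to 202 to 213, 98.1 to 104 and 155 to 166 CPM, nearly all from Lpl, and Adipoq and Plin1 were near 0. Myeloid markers summed to 20.3 to 23.4, 28.8 to 32.4 and 17.2 to 19.1 CPM, mostly from Cd14, with Ptprc near 0. Of 2 tested, none was called with thrombin (list median 0.64, log2). With PD03, 1 was called lower over thrombin (-0.098), and 1 was called higher against control (0.54), unlike the sum. Endothelial markers summed to 6.69 to 7.77, 6.31 to 8.51 and 11.1 to 12.6 CPM, with Pecam1 near 0, and both tested (Kdr and Tek) were called higher with PD03 over thrombin.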

How the data were processed

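Messenger RNA from 9 libraries, 3 per group, was sequenced by the authors. Per the paper, reads were trimmed with fastp, aligned with HISAT2 to Rnor_6.0 and counted with featureCounts, whereas the submitters' processing notes name HISAT2, HTSeq 0.13.5 and mRatBN7.2. Neither source gives the annotation release or the strandedness. The authors deposited a raw count and an FPKM value per gene and library, and the FPKM values are scaled by library totals. The table holds 19085 genes, of which 2048 carry no symbol.

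Counts were tested with edgeR 4.0.16 (R 4.3.3) in 1 fit of all 9 libraries, with TMM scaling, filterByExpr at a minimum count of 10 and Benjamini-Hochberg adjustment over 13256 genes. Calls needed an adjusted p under 0.05 and a log2 fold change beyond 0.58 in either direction. The biological coefficient of variation was 4.28%. Levels are CPM after TMM scaling. FPKM was used for the order of the members, their sum, shares and ratios, and in the alternatives. Pairs of replicates gave a chi-square of 1.82 to 4.03 per degree of freedom, above counting noise, and were kept apart. Floors of 3 counts cover counting error only. The procedure was tested on simulated data.

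The members and lists were chosen with earlier results of these data known. All members are named. From each companion list the rule names the called gene with the largest rise and fall at 1 CPM or more, plus the 5 genes nearest to Ogn. Other genes named from the lists were chosen after their values were seen, as was Cenpp. Of the lists, Chst6, Tll2, Pcolce2, Ncan, Matn1, Cd36, C1qa, C1qb, Cdh5, Emcn and Cldn5 were not analysed here. Alternatives covered scaling, filter, tool (DESeq2 1.42.0, limma 3.58.1), thresholds, FPKM with a pseudocount of 1 or 0.1, a block for replicate number and omission of each library. Python 3.11.15 with matplotlib 3.10.9 drew the figures.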

Additional observations from a re-analysis of the deposited data

How the results depend on the processing

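Of 528 values of single members under the alternatives, 499 kept their direction and their side of the threshold, 8 lost a call, 14 gained one and 7 changed sign, and with 1 library left out 213 of 216 were unchanged in this sense. Dropping the fold threshold gave 1 member higher and 6 lower for thrombin against control, 7 higher and 1 lower for PD03 against thrombin, and 4 higher and 2 lower for PD03 against control. Library totals, and FPKM with 1 or 0.1 added, gave 1 member lower for PD03 against thrombin (Bgn, -0.61 with library totals) and 1 higher for PD03 against control, where Aspn was lost. A threshold of 1, or testing against the threshold of 0.58, also left 1 higher for PD03 against control. Both lost Prelp for thrombin against control, leaving 2 lower (adjusted p = 0.092 against the threshold of 0.58), and the threshold of 1 also lost Prelp for PD03 against thrombin, leaving 4 higher. The cause of these moves was not tested. Scaling by library totals shifted the median of all tested genes to -0.12 (log2) for PD03 against control. The sign of Fmod for thrombin against control, which was not called, turned with library totals (-0.012), a mean count of at least 50 (-0.00012) and FPKM with 1 or 0.1 added (-0.012 for both), and ranged from -0.043 to 0.049 with 1 library left out. Lum for PD03 against control ranged from -0.031 to 0.012 in the same way. The order of the members by level was the same on the FPKM scale and from TMM-scaled counts per length.

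Samples with the same replicate number did not deviate together (correlations from -0.046 to 0.052), but such values cannot exclude that the numbers pair the samples. In every group, pairs with replicate 1 differed more (chi-square of 3.06 to 4.03 per degree of freedom) than replicates 2 and 3 (1.82 to 2.15). With the replicate number as a block, 5 members were again called higher for PD03 against thrombin and 3 lower for thrombin against control, and no call of a member changed. With 3 libraries per group, Omd had few reads (117 counts over the thrombin group), which limits the precision of its fold changes, and Kera could not be compared.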
